A study of Equus caballus with 20 samples.

Results

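The 9 genes of steroid hormone reception described here are written in the deposited table as ESR1, ESR2, NR3C1, NR3C2, 11-HSD2, PGRMC1, PGRMC2, NCOA1 and NCOA3. They were chosen by name, as the rows whose symbol equals one of these 9 names, out of 26740 features in the table. All 9 rows were present, and all 9 passed the filter on low values (above 1 CPM, counts scaled to the library total, in at least 5 libraries) that left 14692 features for testing. PGR, the nuclear progesterone receptor, was not found under that symbol and is not analysed here.

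Steroid hormones cross the cell membrane and bind nuclear receptors, which are transcription factors that the hormone switches on. ESR1 and ESR2 are the estrogen receptors alpha and beta, NR3C1 is the glucocorticoid receptor and NR3C2 the mineralocorticoid receptor, which binds cortisol as readily as aldosterone unless the enzyme 11-beta-hydroxysteroid dehydrogenase type 2 has first inactivated the cortisol. In the mammalian oviduct, estrogen and progesterone steer the balance of secretory and ciliated epithelium, the tubal fluid and the transport of the embryo.

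The RNA came from oviduct epithelium of Warmblood mares taken on day 4 after ovulation at the junction of ampulla and isthmus. The 4 groups compared held 5 libraries each: pregnant mares, oviduct on the ovulation side (PI); pregnant mares, opposite oviduct (PC); cyclic, that is non-pregnant, mares, oviduct on the ovulation side (CI); and cyclic mares, opposite oviduct (CC). No other treatment or genotype is given by the labels, and how the epithelium was separated from the tissue beneath it is not stated in them. Breed and day after ovulation were the same in all 4 groups. The replicates are called biological, and p-values measure the spread between these samples. Except where both oviducts were averaged, the main limma tests took a common estimate of spread from all 4 groups. They did not use the replicate number.

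Library size ran from 2795168 reads (PI1) to 10126484 reads (CI2). A feature listed by an identifier without a gene name took more than 10% of the reads in PI1 (14.4%), PI4 (27.8%) and CI3 (15.4%). The epithelial genes EPCAM and CDH1 averaged 1794 and 2977 normalized counts over the 20 libraries, while KRT8, KRT18, KRT19 and CLDN3 were not found under those symbols. Stromal fibroblast markers were also measured, all 10 of 10 listed, with summed levels of 1247 to 7080 normalized counts in PI, 1970 to 5275 in PC, 2622 to 5581 in CI and 1513 to 8670 in CC. Leukocyte markers summed to 537.4 to 1324, 715.0 to 2083, 549.3 to 1460 and 614.0 to 1076 in the same groups, with the B cell gene MS4A1 at 0 in PI, CI and CC on average. In bulk RNA of this kind, fewer cells of a type and less RNA per cell cannot be told apart.

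ESR1, the main estrogen receptor of the reproductive tract, had lower means in pregnant than in cyclic mares on both sides without passing the test over all features. In PI1 to PI5 it stood at 1068, 1933, 1901, 1959 and 2118 normalized counts, against 2437, 2684, 2284, 2562 and 2270 in CI1 to CI5. Every PI library lay below every CI library, which held for 1 of the 9 genes and for 0.402% of all 14692 features. By limma an unadjusted p under 0.05 was reached by 0 of the 9 genes on this side, against 3.5% of all features; edgeR gave 0 and DESeq2 1 of the 9. PI averaged 1796 ± 415.1 and CI 2447 ± 178.7 (SD, n = 5). By limma the log2 difference was −0.48 ± 0.24 (SE, adjusted p = 0.999), with a 95% interval of −0.99 to 0.03. PI1 lay far below the other 4 PI libraries, and without it the difference was −0.31.

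Opposite the ovulation, ESR1 had 1286, 1877, 2131, 2281 and 2397 normalized counts in PC1 to PC5, against 3224, 3481, 3651, 1418 and 1919 in CC1 to CC5. CC1, CC2 and CC3 were above every other library of the series, whereas CC4 and CC5 fell within the PC range, so the groups overlapped. Separate groups with PC lower were found for 0 of the 9 genes and 0.272% of all features. The mean was 1994 ± 440.8 in PC and 2739 ± 1004 in CC (SD, n = 5), and the log2 difference was −0.40 ± 0.24 (SE; limma, adjusted p = 1). It was −0.25 without PC1 and −0.61 without CC4. Ordered by mean, the groups ran CC, CI, PC and PI, and CC with CI and PC with PI differed by less than the larger of their SDs (292.0 against 1004 and 198.0 against 440.8), while CI and PC lay 453.0 apart at an SD of 440.8 with overlapping ranges.

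ESR2, the second estrogen receptor, encoded by a separate gene and binding the same DNA elements, had lower means in pregnant than in cyclic mares on both sides without passing the test. It stood at 180.4, 155.6, 537.2, 223.1 and 515.0 normalized counts in PI1 to PI5, against 547.5, 339.2, 648.3, 532.0 and 366.5 in CI1 to CI5. The libraries PI1, PI2 and PI4 were below every CI library, but PI3 and PI5 lay inside the CI range. PI averaged 322.3 ± 187.8 and CI 486.7 ± 130.5 (SD, n = 5), which differed on the log2 scale by −0.74 ± 0.39 (SE; limma, adjusted p = 0.999).

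On the other side ESR2 had 161.5, 284.7, 536.0, 109.9 and 291.6 normalized counts in PC1 to PC5, against 463.8, 499.8, 548.0, 631.2 and 271.2 in CC1 to CC5. PC1 and PC4 lay below every CC library, and CC5 lay among the PC libraries. The means were 276.7 ± 164.8 in PC and 482.8 ± 133.9 in CC (SD, n = 5). On the log2 scale they differed by −0.95 ± 0.39 (SE; limma, adjusted p = 1), with a 95% interval of −1.75 to −0.14. By limma this was the 1 of 9 genes with an unadjusted p under 0.05 and a lower level in pregnancy on that side. Of all features 1.8% met that rule by limma (4.55% in either direction). In either direction edgeR gave 0 and DESeq2 3 of the 9. The shares of all features for those 2 tests are not given here, so no reading is made of their counts. Group means ran CI, CC, PI and PC, and each neighbouring pair differed by less than the larger SD of the pair. The ipsilateral difference was −0.47 without the 3 libraries with the fewest reads (PI1, CI3 and CC4) and −0.31 without PI1, PI4 and CI3, the libraries with over 10% of reads in the feature without a gene name.

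**Figure D1:**
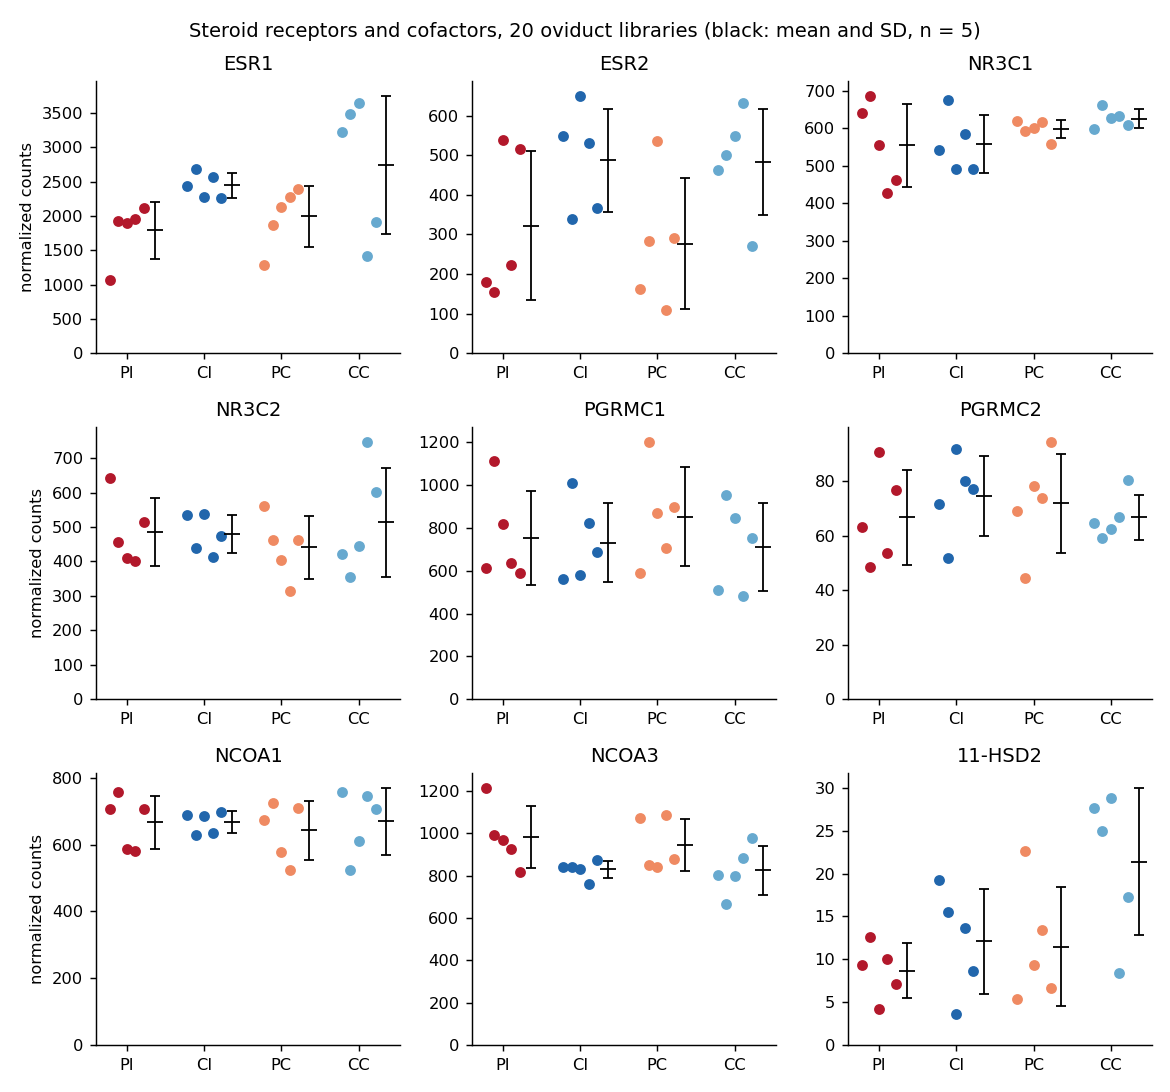
Normalized counts (vertical axis, from 0, a scale of its own for each gene) of the 9 genes in every library, grouped on the horizontal axis as PI, CI, PC and CC; points run from replicate 1 to 5 and the black bar is the mean with its SD (n = 5). All 5 PI points of ESR1 lie at or below 2118, under the lowest CI point at 2270, while the groups of the other 8 genes overlap on both sides.

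With both oviducts of a status and number averaged, so that each number counts once, the 2 estrogen receptors had an unadjusted p under 0.05 by limma, both lower in pregnant mares, and the other 7 genes did not. Of all 14692 features 2.17% met the same rule by limma in that direction and 4.42% (649 features) in either. After adjustment 0% (0 features) passed limma in either direction. The alternatives edgeR and DESeq2 used the summed reads of both oviducts, in which the deeper library weighs more. With an unadjusted p under 0.05 in either direction they gave 2 and 4 of the 9 genes. The shares of all features for those 2 tests are not given here, so no reading is made of their counts. After adjustment edgeR called 0 and DESeq2 16 of all features. For ESR1 the means of both oviducts were 1177, 1905, 2016, 2120 and 2257 normalized counts in pregnant numbers 1 to 5, against 2831, 3082, 2968, 1990 and 2094 in cyclic numbers 1 to 5. The 2 lowest cyclic values lay among the pregnant ones. Separate groups with pregnant mares lower were found for 0 of the 9 genes and 0.347% of all features. The log2 difference was −0.44 ± 0.20 (SE; limma, adjusted p = 0.999), with a 95% interval from −0.87 to −0.01. ESR2 had 171.0, 220.1, 536.6, 166.5 and 403.3 normalized counts in the pregnant mares against 505.7, 419.5, 598.2, 581.6 and 318.9 in the cyclic ones. Its log2 difference was −0.84 ± 0.32 (SE; limma, adjusted p = 0.999), and its 95% interval ran from −1.54 to −0.15. By size of p it ranked 262 and ESR1 591 among the 14692 features.

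**Figure D2:**
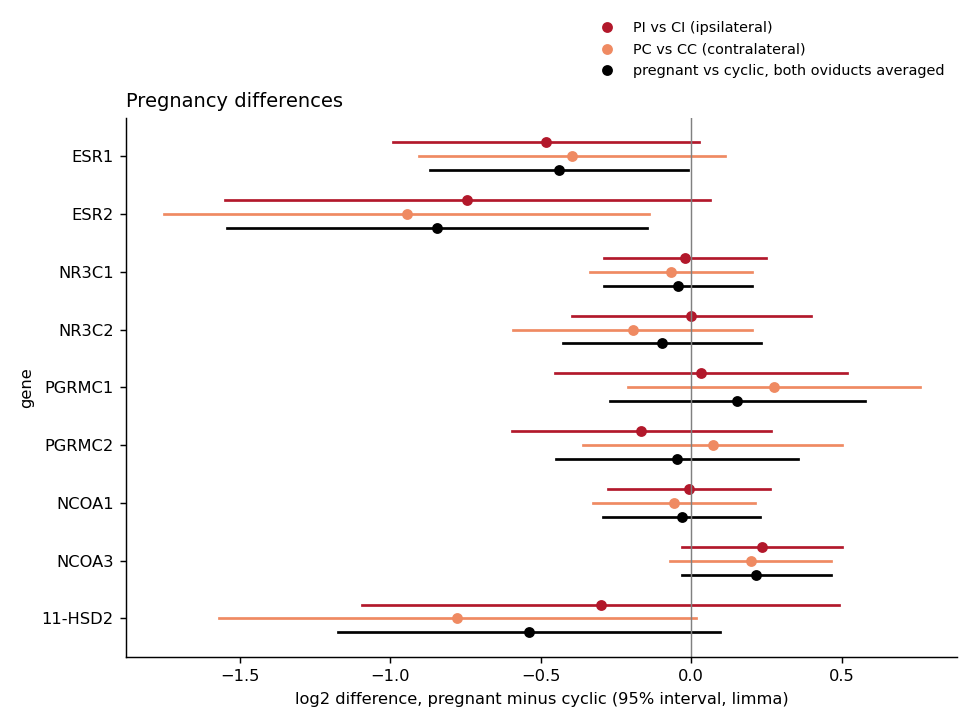
Log2 difference, pregnant minus cyclic (horizontal axis), of each gene on the ovulation side, on the other side and with both oviducts averaged; lines are 95% intervals from limma. ESR2 has the points farthest below 0 (−0.74, −0.95 and −0.84), NCOA3 lies above 0 in all 3 comparisons (0.23, 0.20 and 0.22), and NR3C1 lies within 0.07 of 0 in all 3.

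Cell type marker levels stood beside the estrogen receptor levels as follows. Of the 14 multiciliated markers listed 13 were found, with summed levels of 78170 to 103200 normalized counts in PI, 77490 to 100200 in PC, 58350 to 82140 in CI and 59680 to 89660 in CC. The highest sum in each pregnant group was that of PI1 (103200) and PC1 (100200), the libraries with the lowest ESR1 of their groups. Within CC the sum was 78040 in CC4 and 89660 in CC5, where ESR1 was low, and 59680 to 67390 in CC1, CC2 and CC3, where ESR1 was high. The stromal sum was highest of its group in PI3 (7080) and PC3 (5275), where ESR1 was 1901 and 2131, inside the range of the other libraries of the group. In CI it was lowest in CI5 (2622) and highest in CI2 (5581), the libraries with the lowest and highest ESR1 of CI. It was lowest of its group in PI1 (1247) and PC1 (1970), and 2400 in CC4 and 1513 in CC5 against 2850 to 8670 in CC1 to CC3. ESR2 did not follow the same libraries throughout, with 631.2 normalized counts in CC4 and 271.2 in CC5. Secretory cell markers (8 of 9 found; SLPI at 0 in PI and CC) summed to 3758 to 8782 in PI, 4087 to 6907 in PC, 4373 to 8372 in CI and 3706 to 6480 in CC. The part of cell composition in the ESR1 and ESR2 differences was not tested.

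**Figure D3:**
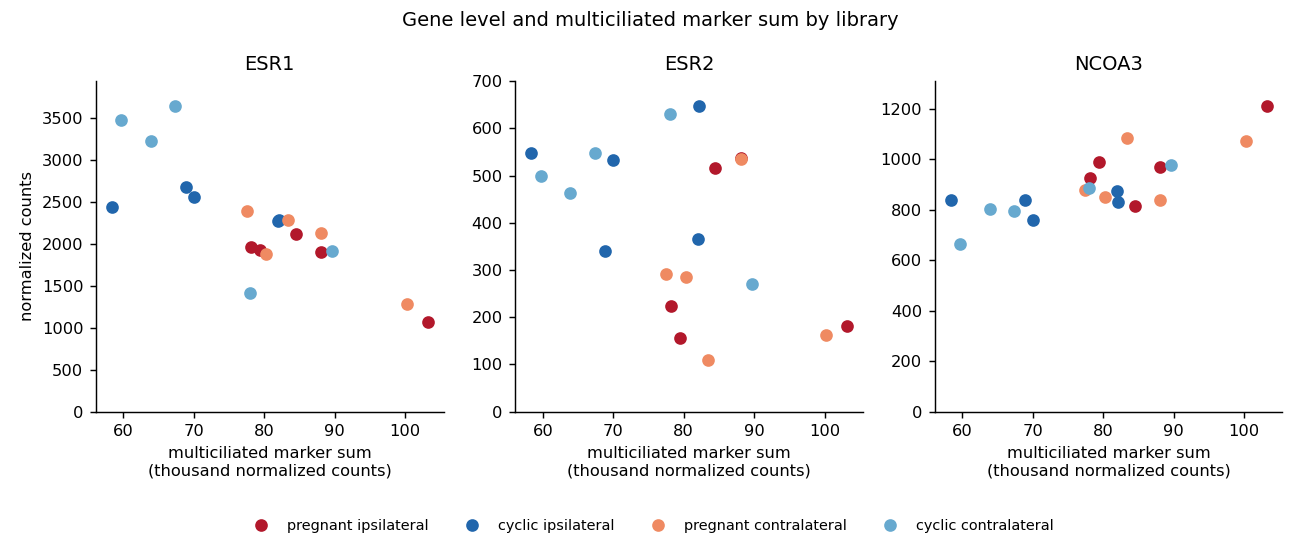
Normalized counts of ESR1, ESR2 and NCOA3 (vertical axes, from 0) against the summed normalized counts of 13 multiciliated cell markers in the same library (horizontal axis, as labelled), 1 point per library coloured by group. Libraries PI1 and PC1, at the right, have the lowest ESR1 of the pregnant groups (1068 and 1286), and the 3 highest ESR1 points (3224 to 3651) are CC libraries with sums of at most 67390.

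The glucocorticoid receptor NR3C1 had close means in pregnant and cyclic mares. Its levels were 642.0, 685.5, 555.9, 427.8 and 461.8 normalized counts in PI1 to PI5, against 542.7, 676.6, 491.7, 585.6 and 492.9 in CI1 to CI5. The CI values lay inside the range of the PI values. PC libraries held 620.1, 592.9, 600.5, 618.4 and 559.8, against 598.2, 662.7, 628.6, 632.9 and 610.3 in CC libraries. The averaged pregnancy difference was −0.04 ± 0.11 on the log2 scale (SE; limma, adjusted p = 0.999), with a 95% interval of −0.29 to 0.20. The spread within groups was uneven, at a coefficient of variation of 4.09% in PC and 3.92% in CC but 20.05% in PI and 13.8% in CI.

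NR3C2, the mineralocorticoid receptor, which in epithelia regulates sodium uptake, averaged 484.9 ± 98.69 normalized counts in PI, 441.0 ± 90.82 in PC, 479.9 ± 55.64 in CI and 514.3 ± 158.1 in CC (SD, n = 5). Its log2 difference in pregnancy was 0.00 ± 0.19 on the ovulation side (−0.05 when scaled to total reads) and −0.19 ± 0.19 on the other (SE; limma, adjusted p = 0.999 and 1). The contralateral value was −0.048 without CC4 and −0.31 without CC2. CC4 held the highest value of the series at 746.5, and PC4 the lowest at 313.9. The 95% interval of the averaged difference ran from −0.43 to 0.23.

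The row 11-HSD2 is the enzyme that inactivates cortisol and so guards the mineralocorticoid receptor; the RefSeq gene table (assembly TB-T2T) lists this name as a synonym of HSD11B2. It rested on few reads, 4 to 13 in the PI libraries, 5 to 24 in PC, 2 to 26 in CI and 5 to 41 in CC. Its levels were 9.37, 12.64, 4.24, 10.06 and 7.09 normalized counts in PI1 to PI5, 5.38, 22.62, 9.37, 13.44 and 6.65 in PC1 to PC5, 19.31, 15.50, 3.60, 13.60 and 8.57 in CI1 to CI5 and 27.67, 25.02, 28.79, 8.35 and 17.24 in CC1 to CC5. CC1, CC2, CC3 and CC5 stood above all PI libraries, and CC5 was below 1 library of PC and 1 of CI. The mean was 11.49 ± 6.95 in PC and 21.41 ± 8.58 in CC (SD, n = 5), and the log2 values differed by −0.78 ± 0.38 (SE; limma, adjusted p = 1). On the ovulation side PI averaged 8.68 ± 3.17 and CI 12.12 ± 6.13, a log2 difference of −0.30 ± 0.38 (adjusted p = 0.999) that was −0.13 without CI1 and −0.57 without CI3. With both oviducts averaged it was −0.54 ± 0.29, and −0.31 without CC3.

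PGRMC1 and PGRMC2 are haem-binding proteins of the endoplasmic reticulum and other membranes, described as components of non-nuclear progesterone responses and as partners of cytochrome P450 enzymes. PGRMC1 had 611.6, 1113, 818.1, 634.1 and 590.6 normalized counts in PI1 to PI5, against 562.0, 1009, 578.1, 821.6 and 690.1 in CI1 to CI5. In PC1 to PC5 it had 590.0, 1201, 869.1, 707.8 and 896.8, against 511.2, 952.5, 845.5, 484.3 and 755.1 in CC1 to CC5. Replicate 2 held the highest PGRMC1 value in each of the 4 groups. The averaged pregnancy difference was 0.15 ± 0.19 (SE, log2; limma, adjusted p = 0.999), with a 95% interval of −0.27 to 0.58. It was 0.078 without CC4 and 0.018 without PI1, CI3 and CC4.

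PGRMC2 had far fewer reads, 27 to 126 per library. It averaged 66.63 ± 17.25 normalized counts in PI, 71.83 ± 18.10 in PC, 74.46 ± 14.66 in CI and 66.68 ± 8.20 in CC (SD, n = 5). Replicate 2 was the lowest library of each group for this gene, at 48.62 in PI, 44.30 in PC, 51.86 in CI and 59.19 in CC, the reverse of its place for PGRMC1. The ratio of PGRMC1 to PGRMC2, which does not depend on library scaling and is compared here only between libraries, was 22.9 in PI2, 27.1 in PC2, 19.5 in CI2 and 16.1 in CC2, the highest of each group, while group medians were 9.67, 9.61, 8.94 and 9.39. The log2 difference of PGRMC2 averaged over both oviducts was −0.05 ± 0.19 (SE; limma, adjusted p = 0.999).

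NCOA1 and NCOA3 are p160 coactivators, proteins that dock onto hormone-bound nuclear receptors and recruit histone acetyltransferases. NCOA3 had higher means in pregnant mares on both sides without passing the test. It stood at 1214, 989.8, 970.8, 927.6 and 815.0 normalized counts in PI1 to PI5, against 840.1, 839.9, 830.2, 761.6 and 874.4 in CI1 to CI5. All PI libraries but PI5 were above every CI library, and PI5 lay within the CI range. The log2 difference was 0.23 ± 0.13 (SE; limma, adjusted p = 0.999). In PC1 to PC5 it had 1073, 852.2, 839.9, 1086 and 879.1, against 803.7, 665.7, 796.5, 885.1 and 976.9 in CC1 to CC5, with a log2 difference of 0.20 ± 0.13 (adjusted p = 1) and overlapping ranges. The averaged difference was 0.22 ± 0.11, with a 95% interval from −0.03 to 0.46. The ipsilateral value was 0.16 without PI1 and the contralateral one 0.12 without CC2, and the highest level of NCOA3 was in the library with the lowest ESR1 and the highest multiciliated sum.

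NCOA1 had nearly equal means in PI (667.5 ± 79.39), CI (667.4 ± 32.68) and CC (669.2 ± 100.1), with 642.2 ± 87.66 normalized counts in PC (SD, n = 5). Its log2 differences in pregnancy were −0.01 ± 0.13 on the ovulation side and −0.06 ± 0.13 on the other (SE; limma, adjusted p = 0.999 and 1). With both oviducts averaged its 95% interval ran from −0.29 to 0.23. The ratio of NCOA3 to NCOA1 averaged 1.49 ± 0.24 in PI and 1.24 ± 0.05 in CI, and 1.51 ± 0.36 in PC and 1.24 ± 0.12 in CC (SD, n = 5). That of NR3C1 to NR3C2 was 1.16 ± 0.26 in PI and 1.19 ± 0.28 in CI, and 1.41 ± 0.34 in PC and 1.31 ± 0.40 in CC. ESR2 to ESR1 gave 0.178 ± 0.085 in PI and 0.201 ± 0.060 in CI, and 0.140 ± 0.073 in PC and 0.205 ± 0.134 in CC; CC4 alone reached 0.445, against 0.141 to 0.15 in the other CC libraries.

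The design also sets the ipsilateral against the contralateral oviduct. By limma 0 of the 9 genes passed in pregnant mares, 0 in cyclic mares and 0 with both statuses averaged, as did 0% of all features. In each, 0 of the 9 had an unadjusted p under 0.05, against 0.762%, 0.286% and 0.681% of all features. These tests and SEs, and those of the interaction, did not use the pairing by number. They do not measure the spread of side differences within a number, whose SD was 0.119 for ESR1 in pregnant mares. In pregnant mares the log2 differences, ipsilateral minus contralateral, lay between −0.24 ± 0.38 (11-HSD2) and 0.22 ± 0.39 (ESR2). That of 11-HSD2 was −0.40 without PC1 and −0.0025 without PC2, and that of ESR2 lay between −0.05 and 0.51 with 1 library left out. In cyclic mares they lay between −0.72 ± 0.38 (11-HSD2) and 0.14 ± 0.21 (PGRMC2). Without CI3 these were −0.45 and 0.059, and PGRMC2 gave 0.26 without CI2. ESR1 differed by −0.16 ± 0.24 in pregnant mares (0.02 without PI1) and by −0.07 ± 0.24 in cyclic mares, and ESR2 in cyclic mares by 0.02 ± 0.39 (−0.05 when scaled to total reads). Averaged over both statuses, ESR1 differed by −0.11 ± 0.17 (−0.026 without PI1 and −0.22 without CC4) and ESR2 by 0.12 ± 0.27.

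Within pregnant mares the 2 oviducts of 1 number had similar ESR1 levels. Pregnant pairs differed by −0.27 to 0.04 on the log2 scale, lower on the ovulation side in 4 of 5, and number 1 was the lowest on both sides. The SD of that side difference was 0.119, against 0.375 between the numbers, the latter taken over the log2 mean of both oviducts. Here and below these are SDs of unlike quantities, since for unrelated libraries a difference is expected to vary more than a mean. Pregnant number 1 averaged 1177, against 1905 to 2257 in numbers 2 to 5, so the 0.375 rested largely on number 1. Cyclic pairs differed by −0.68 to 0.85, with an SD of 0.617 against 0.298 between numbers. For ESR2 the pregnant pairs differed by −0.87 to 1.02 (SD 0.749 against 0.762 between numbers) and the cyclic ones by −0.56 to 0.43. The interaction of pregnancy and side was −0.09 ± 0.35 for ESR1 and 0.20 ± 0.55 for ESR2 (SE; limma, adjusted p = 1 each), and lay between −0.24 ± 0.33 (PGRMC1) and 0.48 ± 0.54 (11-HSD2) over the 9 genes. With 1 library left out it was −0.39 (without PI2) to −0.11 (without PC2) for PGRMC1, and 0.21 (without CI3) to 0.73 (without CC4) for 11-HSD2. For the interaction 0 of 9 had an unadjusted p under 0.05, against 0.32% of all features.

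**Figure D4:**
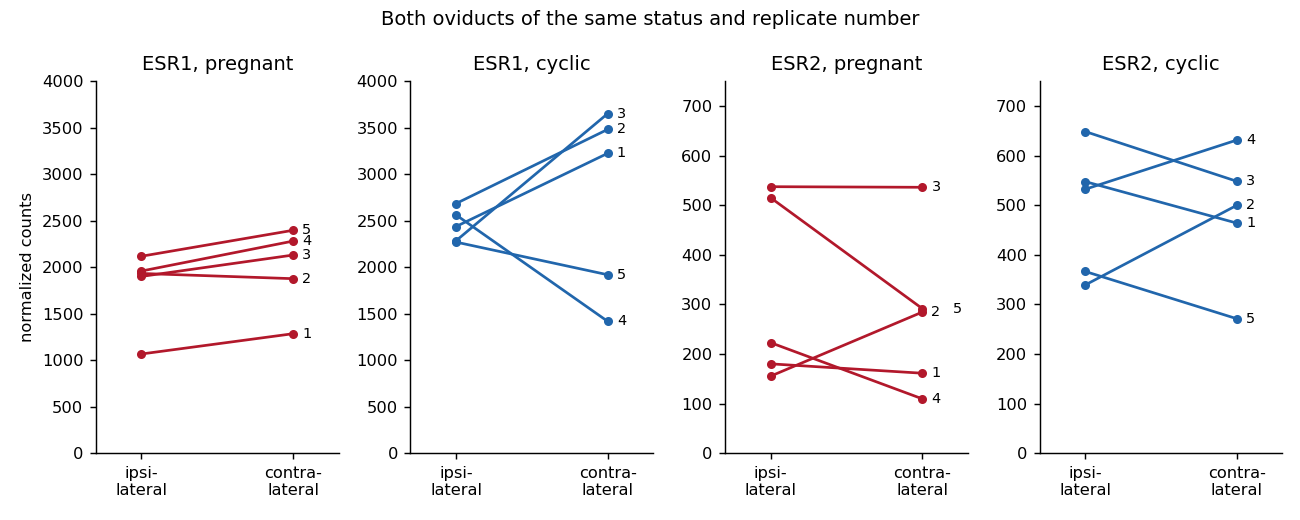
Normalized counts (vertical axis, from 0) of ESR1 and ESR2 in the ipsilateral and contralateral oviduct; a line joins the libraries of the same status and replicate number, printed at its right end. ESR1 lines of pregnant mares run side by side with number 1 lowest (1068 and 1286), whereas those of cyclic numbers 4 and 5 run downwards to 1418 and 1919 while the other 3 run upwards; the labels do not say that a number stands for 1 mare.

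Across the 20 libraries, the genes whose log2 values were most like those of ESR1 were GJB1 (Pearson r = 0.947), a gap junction protein, GNB2 (0.901), a G protein subunit, and ANO1 (0.899), a calcium-activated chloride channel. These are descriptions over libraries that share status and depth, and may share the animal. ANO1 averaged 680.0 ± 200.1 normalized counts in pregnant and 1042 ± 247.1 in cyclic mares (SD over 10 libraries each), with an averaged log2 difference of −0.65 ± 0.22 (SE; limma, adjusted p = 0.999). ESR2 was most like ACSM5 (0.931), a mitochondrial acyl-CoA synthetase, MCC (0.903) and SPDEF (0.873), a transcription factor of secretory epithelia, which averaged 830.8 ± 303.1 in pregnant and 1141 ± 333.6 in cyclic mares. PGRMC1 was most like 2 genes of cilia, IFT57 (0.867) of intraflagellar transport and LRRC23 (0.845) of the axoneme's radial spokes, beside the claudin CLDN2 (0.852). NCOA3 was most like SRGAP2 (0.876), NAV3 (0.868) and ABCA13 (0.865), and NR3C2 most like PARP4 (0.918), ZNF391 (0.913) and WHSC1L1 (0.893). NR3C1 was most like KDM3B (0.775) and INSR (0.753). The 3 genes for NCOA1 were KIF13A (0.845), EML5 (0.818) and MGEA5 (0.816), for PGRMC2 CCDC106 (0.845), HMGA1 (0.825) and RTF1 (0.815), and for 11-HSD2 PEF1 (0.864), NOTCH2 (0.859) and ECE1 (0.854). Among the 9 genes themselves r ran from −0.779 for ESR1 with NCOA3 and −0.748 for ESR2 with NCOA3 to 0.716 for NR3C2 with NCOA1, and was 0.430 between the 2 estrogen receptors.

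The genes around these receptors were taken from 10 lists, in which limma called 0 genes in any of the 7 comparisons. Given below are counts for both oviducts averaged, where 50.1% of all features were lower in pregnant mares and the median log2 difference of all features was 0.00. Estrogen-responsive genes were lower in 11 of the 14 genes that passed the filter (median −0.18). For PI against CI it was 11 (median −0.20) and for PC against CC 8 (median −0.10), where 51.9% and 48.2% of all features were lower. On the ovulation side against the other, both statuses averaged, 11 of the 14 were lower too (median −0.04), against 52.1% of all features. For PI against PC it was 10 (median −0.09), with 55.4% of all features lower. For CI against CC it was 6 (median 0.01), with 48.6% of all features lower. A count of 11 was thus also reached in a comparison of sides. STC2, the secreted glycoprotein stanniocalcin 2, averaged 306.3 ± 119.2 normalized counts in pregnant and 543.7 ± 169.7 in cyclic mares (SD over 10 libraries), a log2 difference of −0.87 ± 0.29 (SE; limma, adjusted p = 0.999). XBP1, a transcription factor of secretory cells, differed by −0.43 ± 0.25 and the chemokine CXCL12 by −0.48 ± 0.29.

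Glucocorticoid-responsive genes were split, 9 of 16 lower (median −0.01), as were progesterone-responsive genes, 7 of 11 lower (median −0.05). FKBP5, which glucocorticoids and progesterone induce and which as a co-chaperone lowers the affinity of their receptors, averaged 786.0 ± 213.6 in pregnant and 1109 ± 200.3 normalized counts in cyclic mares, a log2 difference of −0.53 ± 0.21. The feedback inhibitor of EGF receptors ERRFI1 had a positive difference, with 417.3 ± 109.8 in pregnant and 291.8 ± 71.22 in cyclic mares (0.50 ± 0.19). DPP4, a surface peptidase, differed by 0.52 ± 0.20, and ANGPTL4, a lipase inhibitor near the counting floor in pregnant mares (4.17 ± 4.65), by −1.09 ± 0.46 (limma, adjusted p = 0.999 for each). Mineralocorticoid-responsive and ion transport genes were lower in 4 of 9 (median 0.04). The related ubiquitin ligases NEDD4 and NEDD4L had opposite signs, −0.62 ± 0.19 and 0.34 ± 0.15, and ATP1B1, the beta subunit of the sodium pump, differed by −0.46 ± 0.18 (adjusted p = 0.999 for each).

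Receptor chaperones were lower in 5 of 15 genes (median 0.06); besides FKBP5, STIP1, which links HSP70 to HSP90, differed by 0.22 ± 0.11 and AHSA1, an activator of HSP90, by 0.17 ± 0.11. Other coactivators were lower in 8 of 19 (median 0.01, and −0.05 when scaled to total reads), with NCOA7 at −0.19 ± 0.13, the RNA helicase DDX5 at 0.21 ± 0.18 and the acetyltransferase KAT2B at −0.18 ± 0.16. Corepressors were lower in 4 of 11 (median 0.05), with BRCA1 at 0.70 ± 0.33, SAFB2 at 0.26 ± 0.16 and TBL1XR1 at −0.13 ± 0.12. Steroid metabolism was lower in 9 of 17 (median −0.09). Its aromatase gene CYP19A1, whose enzyme makes estrogens from androgens, averaged 14.61 ± 14.30 in pregnant and 31.73 ± 19.39 normalized counts in cyclic mares (−1.21 ± 0.63), with HSD17B11 at −0.23 ± 0.14 and SRD5A3 at 0.23 ± 0.14 (limma, adjusted p = 0.999 for each of these genes).

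Other nuclear receptors were lower in 15 of 28 (median −0.02). NR4A1, an orphan receptor that stimuli switch on within the immediate-early response, averaged 40.36 ± 12.39 in pregnant and 71.68 ± 24.34 normalized counts in cyclic mares, a log2 difference of −0.78 ± 0.18 (SE; limma, adjusted p = 0.789). NR6A1 differed by 0.50 ± 0.18 and PPARD, a fatty acid sensor, by 0.39 ± 0.17. Membrane progesterone receptors and haem-binding relatives were lower in 8 of 14 (median −0.01). The membrane progestin receptors PAQR5 and PAQR8 were close to the floor, at 5.84 ± 3.09 and 10.46 ± 4.12 in pregnant and 2.46 ± 1.86 and 7.5 ± 5.24 in cyclic mares (0.65 ± 0.29 and 0.41 ± 0.28), and CYB5D2 differed by 0.33 ± 0.23. Marker lists stood beside these with medians of 0.28 for multiciliated cells (0 of 13 lower), −0.52 for stromal fibroblasts (10 of 10 lower), −0.01 for secretory cells (3 of 6) and 0.07 for leukocytes (2 of 7); their part in the list medians was not tested.

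**Figure D5:**
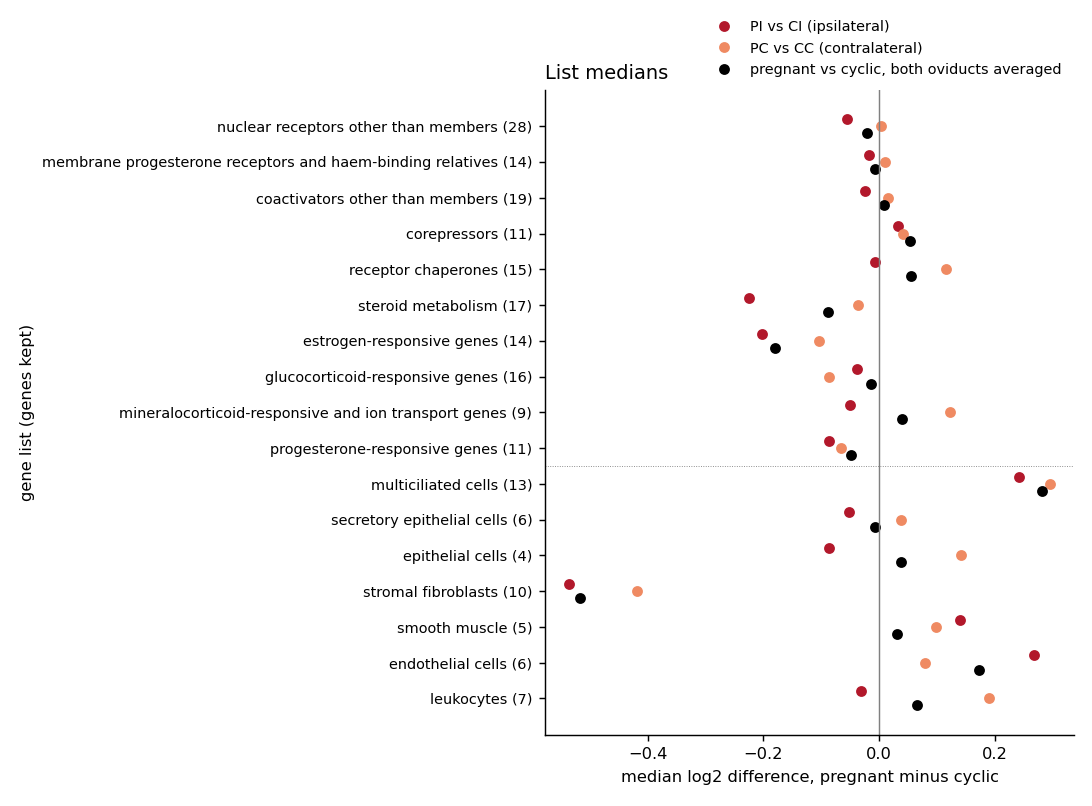
Median log2 difference, pregnant minus cyclic (horizontal axis), of 10 lists around the steroid receptors (above the dotted line) and 7 cell type marker lists (below it), on each side and with both oviducts averaged; numbers of genes kept are in brackets. Estrogen-responsive genes have a median of −0.18 with both oviducts averaged, stromal fibroblast markers are farthest below 0 and multiciliated markers lie above 0 in all 3 comparisons.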

How the data were processed

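The deposited table holds a signal: read counts per gene that the authors scaled by TMM, per the file name. CASAVA 1.8 is named in the submitters' processing notes; for the aligner, counter, strand setting, build and annotation, nothing is given in the sources used here. The labels' protocols name a stranded total RNA kit with ribosomal RNA depletion, and the molecule label polyA RNA. In the RefSeq table the spans of ESR1, NR3C2, NCOA1 and NCOA3 overlap other loci, whose reads cannot be told apart here. No transcript lengths were used, so levels are not compared between genes.

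Dividing by the smallest value of each library recovered whole reads (100% within 0.01); a count of 0 allows up to 3 reads. Tests used limma 3.58.1 (R 4.3.3; trend, robust) on log2 of the value plus 3.03 normalized counts (0.5 CPM), which understates differences of low genes, with 4 group means, Benjamini-Hochberg adjustment over 14692 features and a threshold of 0.05. The comparison of both oviducts averaged used 10 means of status and number. edgeR 4.0.16 and DESeq2 1.42.0 on the recovered reads were alternatives. The fit was tested on simulated data.

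The labels call the replicates biological without naming mares. Same-numbered pregnant libraries deviated together (correlation 0.530 to 0.700 over features). Of the PI libraries, 5 of 5 correlated best with the PC library of their own number. PI2 with CI2, which differ in status, reached 0.587, so a correlation of this size does not show what a number stands for. Chi-square per degree of freedom was at least 4.93 between libraries of a number and 17.3 within groups, so each was counted as a library of its own. Genes, lists and tests were chosen with earlier results of these data known. Named genes are the 9, the 3 list members with the smallest p in the averaged comparison, and the 3 genes most correlated with each of the 9, of which 1 is not reported here. No sequences are printed.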

Additional observations from a re-analysis of the deposited data

Results flagged for a closer look

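In 4 cases a value stood apart from the other 4 of their group by a gap that took more than 0.71 of the group's range, among 52 groups of values examined; chance gives about 1 in 20. ESR1 in PI1 was 1068 normalized counts, against 1901 to 2118 in the other PI libraries. The ratio of ESR2 to ESR1 in CC4 was 0.445, against 0.141 to 0.15. The ratio of PGRMC1 to PGRMC2 was 22.9 in PI2, against 7.69 to 11.8, and 27.1 in PC2, against 8.56 to 11.1. PI2 and PC2 share a number and may not be independent cases. PI1 has the fewest reads (2795168) and CC4 the next fewest (3407805).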

How the results depend on the processing

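The alternatives were run on the pregnancy differences of all 9 genes and on the side differences and interactions of some of them. Of the 1289 values obtained, 1230 kept their sign and their side of the threshold, 59 changed sign and 0 passed the threshold. Part of the 1230 could not change sign. Another filter, a replicate block or a library left out of a group not compared leaves the difference itself unchanged. For ESR1 in PI against CI it was −0.4822 in all runs of that kind. The 1230 is therefore no measure of how stable the signs were. ESR1 and ESR2 kept the lower sign in pregnancy on each side and averaged in every alternative run, including those that could not change it. Leaving out 1 library gave −0.52 to −0.35 for ESR1 and −0.95 to −0.74 for ESR2 averaged, and leaving out the 3 libraries with the fewest reads (PI1, CI3 and CC4), an alternative chosen after seeing the data, −0.57 and −0.81. For 11-HSD2 that last value was −0.88.

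The count of all features passing was 1 for PC against CC when scaled to total reads. By DESeq2 it was 12 for PC against CC and 16 with the reads of both oviducts summed. The cause was not tested. With a replicate block it was 0 in all 7 comparisons, and the block changed no call. Cyclic libraries of a number correlated at −0.0408 to 0.679, and 3 of 5 correlated best with their own number. Across status 1 of 5 did so on each side, which was number 2 (PI2 with CI2 at 0.587 and PC2 with CC2 at 0.488). What libraries of number 2 share was not tested.

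Signs changed as follows, the cause not tested. Scaled to total reads, PI against CI gave −0.0498 for NR3C2 and −0.0177 for PGRMC1, and CI against CC −0.0520 for ESR2. By edgeR, NCOA1 gave 0.00906 (PI against CI), the ESR1 interaction 0.0283 and PGRMC2 averaged 0.0233. By DESeq2, PI against CI gave 0.00803 for NR3C1 and 0.0217 for NCOA1, the ESR1 interaction 0.0439 and PGRMC2 averaged 0.0226. Without PI1, PI4 and CI3, PI against CI gave −0.0172 for NR3C2, 0.0124 for PGRMC2 and 0.0374 for NCOA1, ESR1 0.0239 (PI against PC) and 0.0718 (interaction), ESR2 −0.0918 (CI against CC) and PGRMC2 averaged 0.0621. Without the 3 libraries with the fewest reads, NR3C2 gave −0.0633 (PI against CI), ESR1 0.0198 (PI against PC) and 0.28 (interaction), and NCOA1 averaged 0.00201.

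Leaving out 1 library at a time, PI against CI ran between −0.10 and 0.0657 for NR3C1, −0.11 and 0.0619 for NR3C2, −0.12 and 0.16 for PGRMC1, and −0.0545 and 0.0405 for NCOA1. PC against CC ran between −0.0318 and 0.23 for PGRMC2 and −0.14 and 0.0142 for NCOA1. PI against PC ran between −0.31 and 0.0198 for ESR1 and −0.0531 and 0.51 for ESR2, and CI against CC between −0.29 and 0.0548 for ESR1 and −0.17 and 0.14 for ESR2. The interaction ran between −0.23 and 0.13 for ESR1 and −0.0749 and 0.49 for ESR2, the side average between −0.0156 and 0.27 for ESR2, and the pregnancy average between −0.10 and 0.00902 for NR3C1 and −0.10 and 0.00684 for PGRMC2. The 5 CPM filter gave no value for 11-HSD2, whose 2 to 41 reads per library limit its precision.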
